A study of Mus musculus with 2 samples.

Results

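The fibrillar collagens are the collagen chains that assemble into the banded fibres of dentin, bone, cementum, ligament and skin. The 10 genes Col1a1, Col1a2, Col3a1, Col5a1, Col5a2, Col5a3, Col11a1, Col11a2, Col24a1 and Col27a1 were chosen by symbol, as a known gene family. No measured value entered the rule, but earlier results of these data were known when it was set. All 10 of 10 genes were found among the 34285 genes of the count tables. They were followed in single-cell RNA sequencing of C57BL/6J mouse first mandibular molars and the tissue around them at PN15.5, a stage of root formation. One library, Lipo-Clo, came from mice injected with clodronate liposomes at 40 µg per g first at PN3.5, again at PN6.5, then at PN9.5 and last at PN12.5, a treatment that depletes phagocytic cells. The other, Lipo-PBS, came from mice given vehicle liposomes, and the number of animals behind each library is not stated. With 1 library per condition no difference between conditions has a replicate check, so no p-value is given and each interval below is a 95% interval for counting error only.

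In type I collagen, the main fibre of dentin, bone and periodontal ligament (PDL), a pair of chains from Col1a1 is wound with 1 chain from Col1a2. Col3a1 encodes the single chain of type III collagen, which accompanies type I in soft connective tissue and is largely missing from mineralised matrix. Types V and XI are minor collagens that start fibrils and set their width. Col5a1 with Col5a2 gives the common form of type V and Col5a3 a rarer one, while Col11a1 and Col11a2 are best known from cartilage, and type XI chains also join with type V chains. Col24a1 has been linked to bone and Col27a1 to cartilage, and both belong to an evolutionarily older branch of the family.

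In GENCODE M21 on GRCm38 the genes lie at 8 chromosomes, each with 51 to 67 exons in the coding transcript that has most. Col1a1 (ENSMUSG00000001506) is at chr11:94936224-94953042 and Col1a2 (ENSMUSG00000029661) at chr6:4504814-4541544, both on the plus strand. Col3a1 (ENSMUSG00000026043) is at chr1:45311538-45349706 on the plus strand, and Col5a2 (ENSMUSG00000026042) follows it at chr1:45374321-45503282 on the minus strand, with 24614 bases between the ends of the gene pair. Col5a1 (ENSMUSG00000026837) is at chr2:27886425-28039514 on the plus strand and Col5a3 (ENSMUSG00000004098) at chr9:20770050-20815067 on the minus strand. Col11a1 (ENSMUSG00000027966) at chr3:114030540-114220718 and Col24a1 (ENSMUSG00000028197) at chr3:145292472-145552011 share a chromosome. Col11a2 (ENSMUSG00000024330) is at chr17:34039437-34066685 and Col27a1 (ENSMUSG00000045672) at chr4:63214004-63334991, all 4 on the plus strand.

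Promoter sequences are shown for 3 genes with different patterns over the states below. Col3a1 was highest in adventitial or gingival fibroblasts, called fibroblasts from here on. Col5a3 was above blood cells in these fibroblasts, dental follicle and a PDL state alone among the 9 states. Col11a1 was within the blood range in these fibroblasts. Each run is the 150 bases before the gene start in RefSeq on GRCm38.p6, 5′ to 3′ on the gene's strand. Capitals mark, on either strand, the CCAAT box (letters CCAAT), the GC box (letters GGGCGG) and the TATA box (letters TATAAA). The Runx core (letters TGTGGT) was searched for too.
Col3a1, chr1:45311388-45311537, plus strand: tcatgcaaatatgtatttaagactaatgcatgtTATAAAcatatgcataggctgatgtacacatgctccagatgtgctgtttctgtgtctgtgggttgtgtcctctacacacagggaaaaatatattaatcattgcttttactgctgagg
Col5a3, chr9:20815068-20815217, minus strand: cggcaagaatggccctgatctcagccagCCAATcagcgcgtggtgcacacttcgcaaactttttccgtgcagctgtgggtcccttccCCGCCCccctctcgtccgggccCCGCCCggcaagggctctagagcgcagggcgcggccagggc
Col11a1, chr3:114030390-114030539, plus strand: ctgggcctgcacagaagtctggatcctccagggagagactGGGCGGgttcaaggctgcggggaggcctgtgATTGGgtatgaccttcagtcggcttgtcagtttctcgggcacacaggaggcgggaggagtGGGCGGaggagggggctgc
The Col3a1 window holds a TATA box, which 7.57% of 32851 promoters of the same length hold, and is 37.3% G and C. The windows of Col5a3 and Col11a1 each hold a CCAAT box (24.5% of promoters do) and 2 GC boxes (28.6% of promoters hold at least 1), and are 68.7% and 64.7% G and C. The Runx core, present in 8.40% of promoters, was not in the windows of the 8 members with an entry. A match is a description of letters and not a binding site.

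After filtering, 8254 Lipo-Clo and 8261 Lipo-PBS cells remained, of which 4098 and 3908 were dental mesenchyme, with 13403591 and 12832425 UMIs. A UMI (unique molecular identifier) counts 1 captured RNA molecule and tags 1 end of it, so levels are given as UMIs per 1000000 UMIs of the same cells (CPM) without division by length, and a level of 1 gene is not ranked against that of another. The 10 genes were kept out of the clustering, so that no class or state was defined by them. Macrophages numbered 127 and 173 cells and monocytes 386 and 230. The libraries shared 30 cell barcodes. Mitochondrial UMIs were 0.370% and 1.73% of the totals, and a cluster with markers of several lineages, which was left unnamed, held 41 Lipo-Clo and 668 Lipo-PBS cells. A neutrophil-like state of 5 and 23 cells remained inside the mesenchyme.

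Every class of cell gave Col1a1 UMIs, including blood cells, most of which are not known to make fibrillar collagen. For macrophages, the paper that reported these data describes a Col1a1-high subset, reduced after depletion, which was not examined here. Taken as a whole class, macrophages were not the highest blood class for Col1a1 in either library, which does not speak to a subset. Over the 6 blood cell classes (B cells, erythroid cells, macrophages, monocytes, neutrophils, T or NK cells), Col1a1 was between 3314 and 9966 CPM in Lipo-Clo and between 5337 and 13947 CPM in Lipo-PBS. With every cell thinned to 1000 UMIs, 46.8 to 54.2% and 50.5 to 67.6% of blood cells had a Col1a1 UMI, against 98.0% and 98.7% of mesenchymal cells. In droplet data free RNA can give UMIs in any cell, so a level at or under the highest blood class is not read as expression below. Set against Col1a1, blood cells resembled the mesenchyme. Col1a2 came to 340 to 427 UMIs per 1000 Col1a1 UMIs in Lipo-Clo and 318 to 464 in Lipo-PBS, and the mesenchyme had 367 and 442.

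Dental mesenchyme was the main source of each gene. It held 83.0% and 73.9% of all Col1a1 UMIs of the kept cells, and the lowest share was that of Col5a3, at 63.8% and 56.2%. The cluster left unnamed held 3278 of 620868 Col1a1 UMIs in Lipo-Clo and 58217 of 602594 in Lipo-PBS. Together the 10 genes made up 6.86% (95% Clopper-Pearson interval 6.84 to 6.87) of mesenchymal UMIs in Lipo-Clo and 6.78% (6.76 to 6.79) in Lipo-PBS. Over the mesenchyme as a whole, the share thus differed little between the libraries, while its make-up did. Col1a1 was 56.1% of these UMIs in Lipo-Clo and 51.2% in Lipo-PBS. Single states, described below, differed in either direction. Lipo-Clo had the lower share in the PDL state led by Crispld2 (9.48% against 11.5%). It had the higher share in dental follicle (8.85% against 7.48%). The share with the same mixture of states for both libraries is not given here.

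Outside the mesenchyme, perivascular cells and glia gave the members in other proportions than blood cells did. In perivascular cells, the smooth muscle and pericytes around vessels, Col5a3 stood at 325 CPM (287 to 367) in Lipo-Clo and 230 CPM (205 to 256) in Lipo-PBS, above the highest blood class at 53.3 and 43.3 CPM. In glia, the Schwann lineage of dental nerves, Col5a3 was at 132 CPM (98.6 to 174) and 212 CPM (179 to 249). Per 1000 Col1a1 UMIs, Col3a1 came to 982 and 835 in perivascular cells and 578 and 743 in glia, whereas no blood class exceeded 400 in Lipo-Clo or 403 in Lipo-PBS. By level, Col3a1 and Col5a1 of glia were at or under the highest blood class in Lipo-PBS, and are not read as expression there. Col5a1 came to 58.5 and 53.9 per 1000 in perivascular cells against at most 28.0 and 23.9 in blood cells, and Col5a2 to 145 and 157 against at most 52.1 and 70.7 there. Col27a1 was at 135 CPM (101 to 177) and 86.0 CPM (65.6 to 111) in glia, above the highest blood class at 30.2 and 33.0 CPM. Col1a1 itself, at 5771 and 6614 CPM in perivascular cells and 8182 and 5710 CPM in glia, did not exceed the highest blood class in either library.

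**Figure D1:**
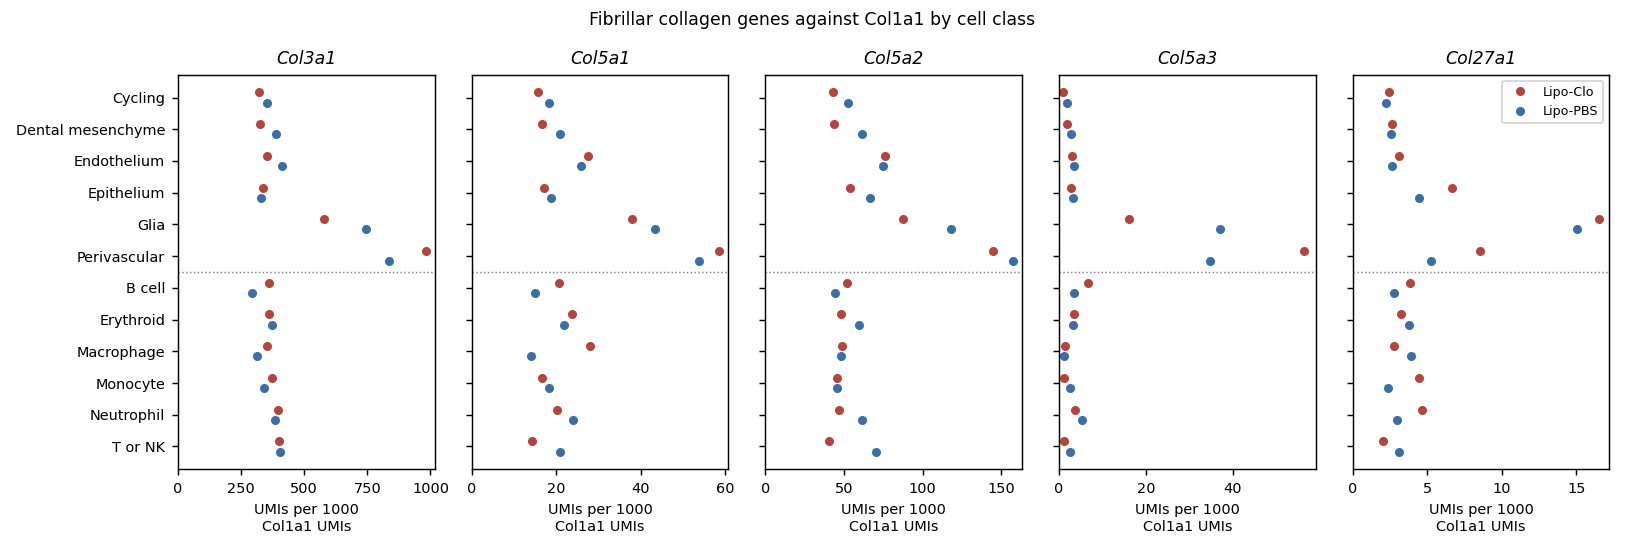
UMIs of 5 genes per 1000 Col1a1 UMIs (linear axes from 0) in each cell class, with Lipo-Clo in red and Lipo-PBS in blue and the 6 blood cell classes under the dotted line. Perivascular cells and glia stand to the right of the blood classes for Col3a1, Col5a1, Col5a2, Col5a3 and Col27a1, and epithelium does for Col27a1.

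The enamel epithelium had Col1a2 in more cells than blood did, but not Col1a1. In the epithelial cluster led by Amelx and Klk4, genes of enamel-forming ameloblasts, 67.0% of 494 thinned Lipo-Clo cells and 68.9% of 270 thinned Lipo-PBS cells had a Col1a2 UMI. The highest blood class had 35.7% and 59.2%. For Col1a1 the same cells gave 49.2% and 65.9%, inside the range of the blood classes. The summed Col1a2 level of this cluster, 2669 and 4034 CPM, was under the highest blood class at 3389 and 4778 CPM. By the rule given above, that level is not read as expression, although more of the cells had a UMI. Col1a2 came to 560 and 470 UMIs per 1000 Col1a1 UMIs in that cluster, above the highest blood class at 427 and 464, with the Lipo-PBS values close together. In the small epithelial cluster led by Dsc3 and Nppc (59 and 74 cells) it was 325 and 553, on different sides of the blood range. In the cluster led by Amelx and Klk4, Col27a1 was at 53.1 CPM (42.6 to 65.4) and 61.3 CPM (46.2 to 79.8), and it was at 13.2 and 19.3 CPM in the epithelial cluster led by Krt15 and Lgals7.

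Within the mesenchyme, 9 states had at least 50 cells in each library, and the members divided the states between them. The state called fibroblasts, led by Clec3b, was named by markers of adventitial or gingival fibroblasts. Those called pulp states were named by markers of pulp or papilla, which were not told apart. Col1a1 was highest in odontoblasts, the dentin-forming cells led by Dspp, at 103722 CPM (102993 to 104455) in Lipo-Clo and 91579 CPM (90760 to 92404) in Lipo-PBS. In the median odontoblast 10.2% and 8.59% of all UMIs were Col1a1. The PDL state led by Crispld2 followed with 52051 and 61841 CPM, then the dental follicle with 49689 and 39627 CPM. The pulp state led by Lrrc4c had 7630 and 7520 CPM and the pulp state led by Ctnnd2 had 4384 and 9529 CPM, levels that blood cells also reached. Col1a2 had the same highest and lowest states as Col1a1 in each library, at 23476 and 28038 CPM in odontoblasts. Neighbours in the Col1a1 order of each library had counting intervals that did not overlap, but the order was not the same in both. The Edil3 PDL state was above osteoblasts or cementoblasts in Lipo-Clo (44826 and 39396.5 CPM) and under them in Lipo-PBS (34793.5 and 38719 CPM). The pulp states changed places too.

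Col3a1 differed from Col1a1 in where odontoblasts and fibroblasts stood. It was highest in the fibroblasts led by Clec3b, at 27283 CPM (27007 to 27561) and 22476 CPM (22289 to 22663), followed by both PDL states. Odontoblasts came last at 1421 CPM (1337 to 1510) and 1943 CPM (1825 to 2066), close to erythroid cells at 1582 and 1984 CPM. Per 1000 Col1a1 UMIs, Col3a1 ran from 13.7 and 21.2 in odontoblasts to 1213 and 1274 in fibroblasts. The osteoblast or cementoblast state lay between, at 8229 and 8783 CPM. Across the 19 points (each state in each library with at least 50 cells, 1 of them a small second fibroblast state of Lipo-PBS), log2 levels of Col3a1 and Col1a1 had a Pearson r of 0.23, against 0.97 for Col1a2 and Col1a1. These points share 2 libraries and a background of free RNA, so the values are a description.

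The type V chains split. Col5a1 was highest in fibroblasts, at 1165 CPM (1109 to 1224) and 1035 CPM (995 to 1075), where the interval overlapped that of the next state, a PDL state, in each library. It was lower in odontoblasts at 337 and 400 CPM. Col5a2 differed less between the matrix-forming states. In odontoblasts, at 2093 and 2542 CPM, it was higher than in fibroblasts, at 1768 and 2149 CPM. The Col5a2 to Col5a1 ratio therefore ran from 1.52 and 2.08 in fibroblasts to 6.21 and 6.35 in odontoblasts. Col5a3 stood at 192, 174 and 222 CPM in Lipo-Clo and at 219, 180 and 144 CPM in Lipo-PBS in fibroblasts, dental follicle and the PDL state led by Edil3, and the intervals of neighbours in that order overlapped. In the other 6 states it was at or under the highest blood class in both libraries. The other PDL state, led by Crispld2, had 11.9 CPM (8.18 to 16.7) in Lipo-Clo and a similar level in Lipo-PBS (8.35 to 19.4).

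Col11a1 and Col11a2, which pair in cartilage, differed in how widely they were found. Col11a1 was at 1642 and 1868 CPM in odontoblasts, 1475 and 1188 CPM in dental follicle, 1040 and 1966 CPM in the Crispld2 PDL state and 1139 and 1459 CPM in the Edil3 PDL state. Col11a2 was at 1419 CPM (1335 to 1507) and 1190 CPM (1098 to 1287) in odontoblasts and at 391 CPM (361 to 422) and 329 CPM (303 to 357) in the osteoblast or cementoblast state. No other state exceeded 56.9 CPM for Col11a2, and the dental follicle was at 18.5 and 4.98 CPM. Odontoblasts, 3.07% and 2.41% of mesenchymal cells, held 55.1% and 44.9% of mesenchymal Col11a2 UMIs.

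Col24a1 and Col27a1 were both high in odontoblasts of Lipo-Clo. Col24a1 was highest in odontoblasts, at 145 CPM (119 to 175) and 163 CPM (130 to 201), and next in osteoblasts or cementoblasts at 91.0 and 121 CPM. The odontoblast and osteoblast intervals overlapped in Lipo-PBS. Fibroblasts, at 10.2 and 14.1 CPM, and the Mmp13 state, at 18.3 and 13.7 CPM, had the lowest levels. Col27a1 was highest in odontoblasts of Lipo-Clo, at 202 CPM (171 to 237), and in the Crispld2 PDL state of Lipo-PBS, at 162 CPM (145 to 182). Neighbouring states overlapped in their intervals for most of the Col27a1 order.

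**Figure D2:**
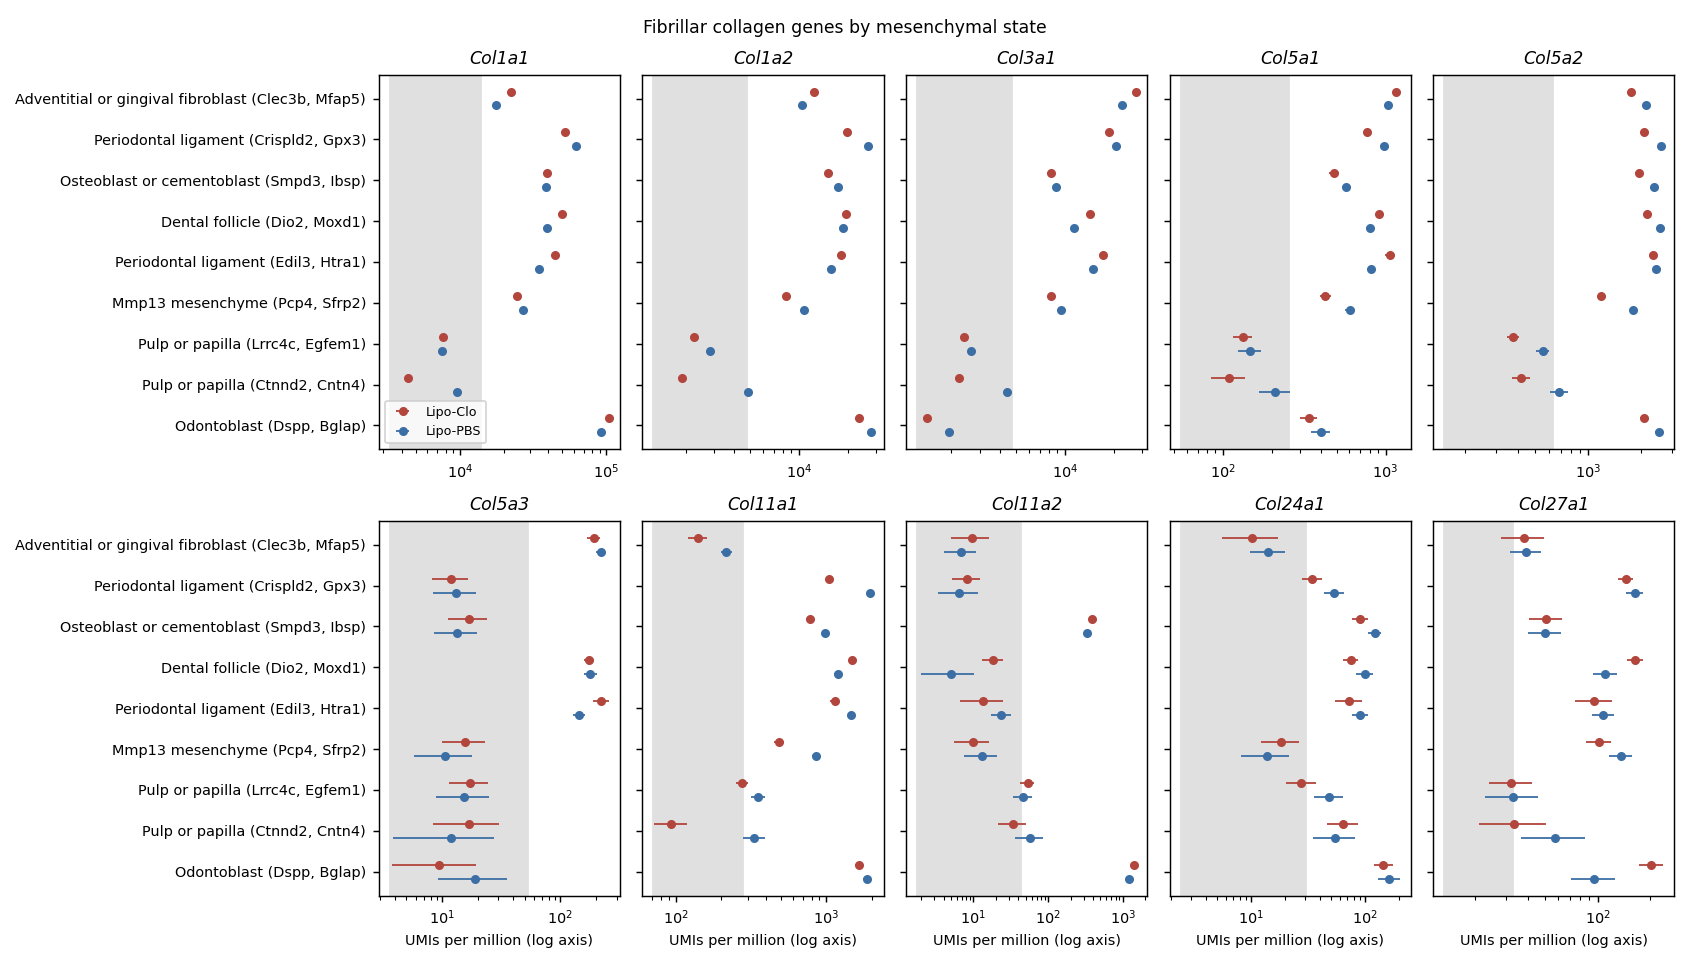
Level of each gene (UMIs per 1000000 UMIs, log axes that differ between panels) in the 9 mesenchymal states, with Lipo-Clo in red, Lipo-PBS in blue and bars for 95% counting intervals. The grey band spans the lowest to the highest blood cell class of both libraries, and Col3a1 of odontoblasts and Col5a3 of 6 states lie within it.

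By the 3 genes most correlated with each member over these 19 points, Col1a1 was followed by Col1a2 (r = 0.97), Sparc (0.96) and P3h4 (0.95), the last a member of the collagen prolyl hydroxylase family. Col1a2 was most like Sparc (0.99), a matrix protein that binds collagen, then Col5a2 and Col1a1 (both 0.97). Col5a2 was in turn most like Col1a2 (0.97), Sparc (0.95) and Tnfrsf12a (0.92). Col3a1 was most like Ptgfrn (0.95), Fos (0.94) and Spon2 (0.93), and Col5a1 was most like Htra3 (0.95), with Ptgfrn (0.92) also among its 3. For Col5a3 the genes were Rras (0.95), C1qtnf2 (0.93) and Nnmt (0.91). Col11a2 was most like Pla2g5, Kcnma1 and Bmp8a (all 0.94), and Col24a1 was most like Fmnl3 (0.94), Cerk and Cemip (both 0.86). Col11a1 and Col27a1 shared Tmem123 as the most similar gene (0.89 and 0.83). The other genes were Hdlbp and Col1a1 (both 0.86) for Col11a1, and Col11a1 and Cd276 (both 0.83) for Col27a1.

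The libraries were then compared in the summed mesenchyme. The question set by the design is whether collagen transcripts differ after clodronate liposomes. Among the kept cells, macrophages were fewer in Lipo-Clo (127 against 173). Monocytes (386 against 230) and neutrophils (522 against 213) were more. Col11a2 was higher in Lipo-Clo, at 144 CPM against 108 CPM, a log2 ratio of 0.41 (0.31 to 0.51). Col5a2 was lower, at 1669 against 2133 CPM (−0.35, −0.38 to −0.33), and so was Col5a3, at 71.0 against 93.2 CPM (−0.39, −0.52 to −0.27). These 3 genes passed the limit used here, a log2 ratio of 0.32 in either direction. All 10 members were in use, meaning that at least 10% of mesenchymal cells of either library had a UMI, as did 4687 genes in total. Of those 4687 genes 14.7% were higher and 18.0% lower in Lipo-Clo past the same limit, so 1 higher and 2 lower of 10 is near the background.

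The 7 members inside the limit went either way. Col1a1 was at 38457 against 34723 CPM (0.15, 0.14 to 0.15). Col1a2 was at 14132 and 15342 CPM (−0.12, −0.13 to −0.11), the opposite direction to its partner chain. Col3a1, at 12489 and 13489 CPM, had a log2 ratio of −0.11 (−0.12 to −0.10). Col5a1 was at 639 and 729 CPM (−0.19, −0.23 to −0.15) and Col11a1 was at 819 and 1007 CPM (−0.30, −0.33 to −0.26). Col24a1 gave 52.6 and 65.3 CPM (−0.31, −0.46 to −0.17), and Col27a1 gave 101 and 88.4 CPM (0.19, 0.08 to 0.31). The median over the 10 genes was −0.15, beside −0.01 over all genes in use.

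The mixture of states differed between the libraries. Of the Lipo-Clo mesenchymal cells 13.5% were Clec3b fibroblasts, against 23.8% for Lipo-PBS, and the Edil3 PDL state was 6.10% and 15.3%. The Crispld2 PDL state went the other way, at 17.4% and 11.2%. When both libraries were given the same mixture, Col5a3 went from −0.39 to 0.06 and Col3a1 from −0.11 to 0.07, while Col11a2 fell inside the limit at 0.24 and Col5a2 came to −0.30. Col11a1, at −0.41, and Col24a1, at −0.37, were then the members lower past the limit. The share of all genes in use past it with this mixture is not given here. The median over the 10 genes became 0.01, beside −0.004 over all genes in use. Which genes passed thus depended on the mixture.

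**Figure D3:**
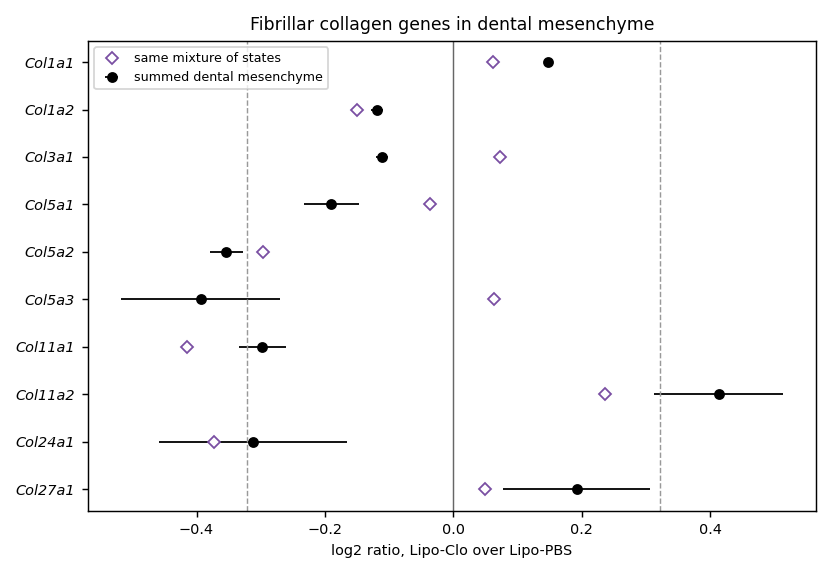
Log2 ratio of Lipo-Clo over Lipo-PBS for each gene in the summed dental mesenchyme (filled circles, with 95% counting intervals) and with both libraries given the same mixture of states (open diamonds, no interval computed). Dashed lines mark the limit in either direction, and Col5a3 and Col3a1 change sides of 0 between the measures.

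Within states, the ratios ran in different directions for most members. Col1a1 was higher in Lipo-Clo in fibroblasts (log2 ratio 0.35), dental follicle (0.33), the Edil3 PDL state (0.37) and odontoblasts (0.18). It was near equal in osteoblasts or cementoblasts (0.03) and the Lrrc4c pulp state (0.02), and lower in the Crispld2 PDL state (−0.25), the Mmp13 state (−0.14) and the Ctnnd2 pulp state (−1.12). Col3a1 and Col5a1 were higher in 3 states, fibroblasts, dental follicle and the Edil3 PDL state, and lower in the other 6. In the Ctnnd2 pulp state Col11a1 was at −1.83 and Col1a1, Col1a2, Col3a1 and Col5a1 were between −1.36 and −0.94. But its cells were shallow, with a median of 1343 UMIs, and their Col1a1 level of 4384 CPM in Lipo-Clo was that of erythroid cells at 4373 CPM. The median cell of that state had 0.175% of its UMIs from Col1a1 in Lipo-Clo and 0.181% in Lipo-PBS. The difference in the summed Col1a1 level was thus not seen in the median cell.

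Col5a2 was lower in Lipo-Clo in all 9 states, by −0.72 (−0.97 to −0.48) in the Ctnnd2 pulp state at most and by −0.06 (−0.14 to 0.03) in the Edil3 PDL state at least. The interval lay below equal levels in 8 of the 9. In the Lrrc4c pulp state Col5a2, at 373 and 551 CPM, was under the highest blood class at 411 and 633 CPM. Col5a2 was also lower in Lipo-Clo in each blood class, from −0.16 (−0.61 to 0.27) in macrophages to −2.06 (−2.26 to −1.87) in monocytes. In erythroid cells it was at −0.59 (−0.80 to −0.37). This was not particular to Col5a2, since Col1a2 was lower in each blood class too, from −0.19 in erythroid cells to −1.81 in monocytes. The part of free RNA in the difference was not tested. Of 2658 genes with at least 50 UMIs in each state, 9.78% were lower in every state. Among the 6 members with that depth only Col5a2 was. Its chromosome neighbour Col3a1 was higher in 3 of the 9 states.

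Col11a1 was lower in 8 of 9 states. Besides the Ctnnd2 pulp state, the log2 ratio was −0.92 (−0.99 to −0.85) in the Crispld2 PDL state, −0.83 (−0.96 to −0.69) in the Mmp13 state and −0.63 (−0.88 to −0.39) in fibroblasts. The fibroblast levels, 140 and 217 CPM, lay within the range of the blood classes. In the dental follicle it was higher, at 0.31 (0.23 to 0.40). With 1040 against 1966 CPM, the Crispld2 PDL cells showed its widest gap among states above the blood classes in both libraries.

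Members moved apart within single states, in odontoblasts and in other states too. Col1a1 (0.18, 0.16 to 0.20) and Col11a2 (0.25, 0.11 to 0.40) were higher in Lipo-Clo. Col1a2 (−0.26, −0.29 to −0.22), Col5a2 (−0.28, −0.39 to −0.17) and Col11a1 (−0.19, −0.31 to −0.06) were lower. Col27a1 was at 202 CPM from 151 UMIs in Lipo-Clo and 95.8 CPM from 50 UMIs in Lipo-PBS (1.08, 0.61 to 1.57). These values rest on 126 and 94 cells. In osteoblasts or cementoblasts Col11a2 (0.25) was likewise higher, with Col1a1 at 0.03. There Col1a2 (−0.21), Col5a2 (−0.28) and Col11a1 (−0.33) were lower. In dental follicle Col1a1 (0.33), Col27a1 (0.56) and Col11a1 (0.31) were higher, and Col5a2 (−0.25) and Col24a1 (−0.41) were lower.

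**Figure D4:**
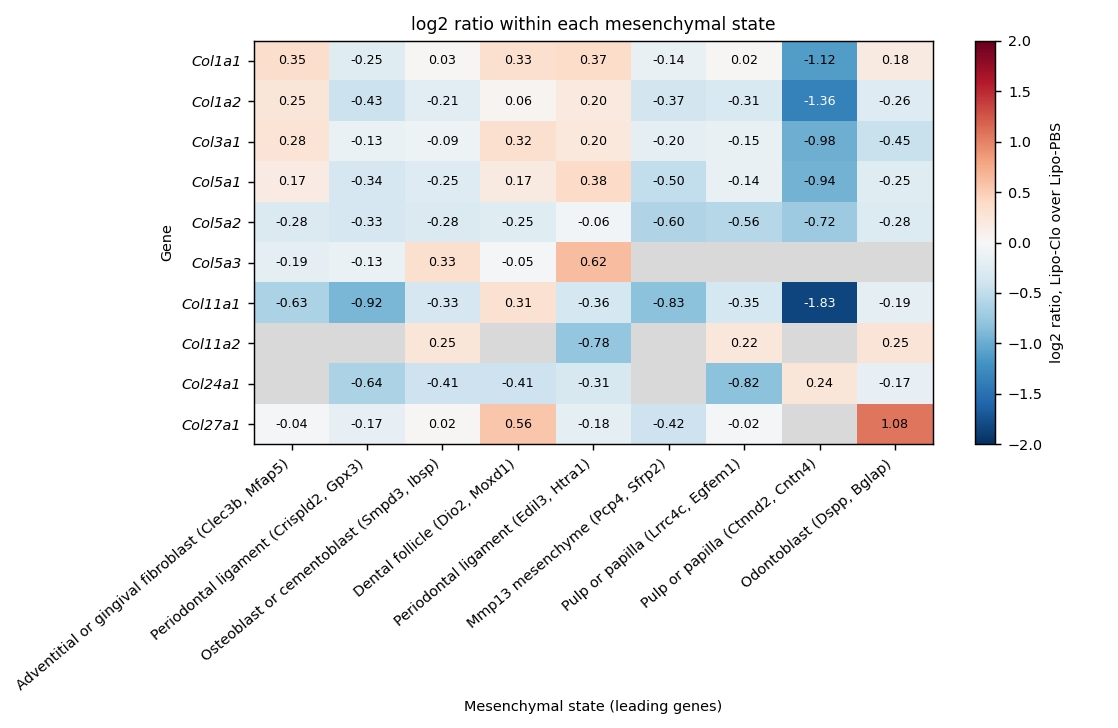
Log2 ratio of Lipo-Clo over Lipo-PBS for each gene (rows) in each of the 9 mesenchymal states (columns), red for higher and blue for lower in Lipo-Clo, with grey where the libraries together held fewer than 50 UMIs. Col5a2 is blue in all 9 states, and Col1a1 ranges from 0.37 to −1.12.

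Set against each other within the same cells, the type I chains gave the most even difference. Such a ratio does not depend on how the libraries are scaled. In the whole mesenchyme Lipo-Clo had 0.367 Col1a2 UMIs per Col1a1 UMI and Lipo-PBS had 0.442, a log2 difference of −0.27 (−0.28 to −0.26). The ratio was lower in Lipo-Clo in 9 of 9 states, and the interval of the difference excluded 0 in all 9. In odontoblasts it was 0.226 against 0.306 (−0.44, −0.47 to −0.40), in the Lrrc4c pulp state 0.297 against 0.374 (−0.33, −0.41 to −0.25), and in dental follicle 0.394 against 0.475 (−0.27, −0.30 to −0.24). Col1a1 of both pulp states and Col1a2 of the Lrrc4c pulp state were at or under the highest blood class in both libraries. The Crispld2 PDL state had 0.380 against 0.432 and osteoblasts or cementoblasts had 0.381 against 0.448. Fibroblasts, which had the highest ratio in both libraries, differed least, at 0.547 against 0.588 (−0.10, −0.14 to −0.07).

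The difference had no single direction outside the mesenchyme. Of 12 other classes, the unnamed cluster included, 7 had a lower ratio in Lipo-Clo, with the interval excluding 0 in 5, among them T or NK cells (0.340 against 0.464), dividing cells (0.366 against 0.389) and neutrophils (0.384 against 0.429). In 3 classes the ratio was higher with an interval excluding 0, namely monocytes (0.382 against 0.318), epithelium (0.474 against 0.415) and the unnamed cluster (0.394 against 0.347). Erythroid cells, at 0.372 against 0.348, and B cells, at 0.427 against 0.405, had intervals that included 0. In cells thinned to 1000 UMIs the ratio was again lower in 9 of 9 mesenchymal states, by between −0.41 in odontoblasts and −0.09 in fibroblasts.

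**Figure D5:**
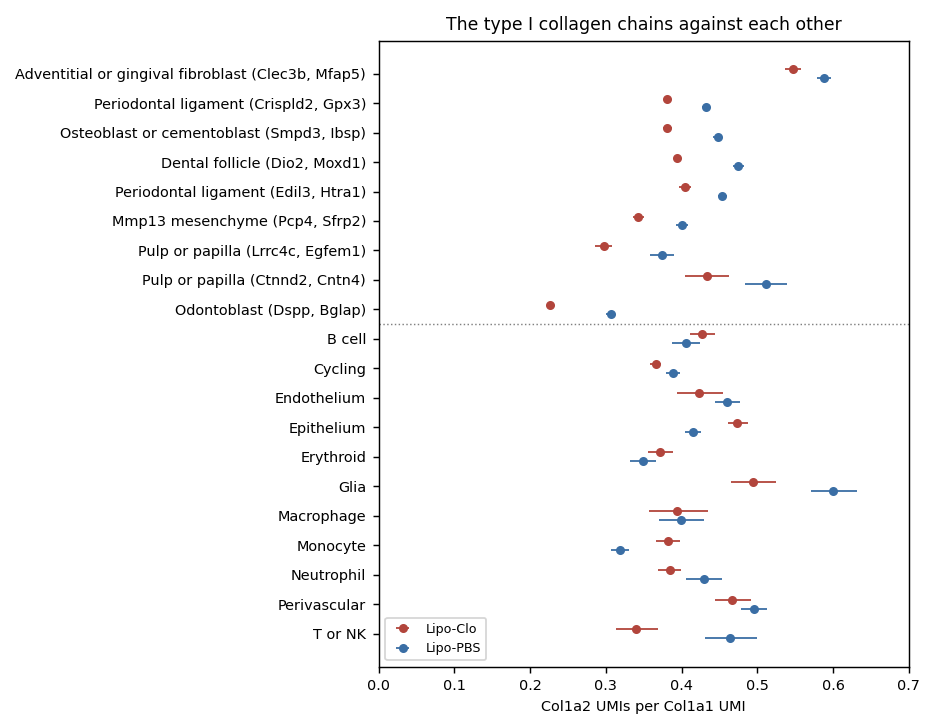
Col1a2 UMIs per Col1a1 UMI (linear axis from 0) in the 9 mesenchymal states above the dotted line and in the other named cell classes below it, with Lipo-Clo in red, Lipo-PBS in blue and bars for 95% exact binomial intervals. The Lipo-Clo point lies to the left in each mesenchymal state, while the other classes go either way.

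Relative to Col1a1, Col11a1 was also lower in 9 of 9 states, by −0.98 in fibroblasts at most and by −0.01 (−0.10 to 0.07) in dental follicle at least. The Col11a1 level of fibroblasts was under the highest blood class in both libraries. Of 12 other classes 7 had a lower ratio in Lipo-Clo, with the interval excluding 0 in 5. Macrophages had a higher ratio (0.65, 0.08 to 1.21). Of 2657 other genes with enough UMIs in every state, 0.715% were lower relative to Col1a1 in all 9. Among the 5 members with that depth, Col1a2 and Col11a1 were. Col1a1 itself was at −1.12 in the Ctnnd2 pulp state, where its level was at or under the highest blood class. A gene counted only if it was lower by more than that there, and the share without that state is not given here. Col5a2 relative to Col1a1 was lower in 8 states and higher in the Ctnnd2 pulp state (0.40, 0.15 to 0.65). Within type XI, Col11a2 per Col11a1 was higher in Lipo-Clo with an interval excluding 0 in 3 of the 4 states with enough UMIs. It was lower in 1 (−0.42), with an interval that included 0. The ratio was 0.864 against 0.637 in odontoblasts (0.44, 0.25 to 0.63) and 0.502 against 0.336 in osteoblasts or cementoblasts (0.58, 0.39 to 0.77). Of 5 other classes with enough UMIs, it was higher with an interval excluding 0 in 2 and lower in 1. B cells had 49 and 18 Col11a2 UMIs beside 222 and 147 Col11a1 UMIs. The part of free RNA was not tested. Col27a1 per Col24a1 was higher in Lipo-Clo in each of the 6 states with enough UMIs of both, and the interval excluded 0 in 3, the dental follicle (2.17 against 1.11), odontoblasts (1.40 against 0.588) and the Crispld2 PDL state (4.22 against 3.05).

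Genes linked to making, modifying, secreting, trimming, cross-linking, binding, taking up or breaking down collagen gave the setting. They are called processing genes below, and since the list mixes these roles, its counts do not speak to collagen making alone. Of 44 such genes, 33 were in use, and 10 of these were lower and 0 higher in Lipo-Clo past the same limit, beside 18.0% lower and 14.7% higher of all 4687 genes in use. The median log2 ratio of the 33 was −0.06. The 4 lowest were Mmp13, the collagenase, at 203 against 421 CPM (−1.05, −1.12 to −0.99), the fibril-associated proteoglycans Dcn (−0.76) and Fmod (−0.61), and Loxl1 (−0.61), of the lysyl oxidase family. With the same mixture of states Mmp13 stayed at −0.91, while Dcn came to −0.28, Fmod to −0.30 and Loxl1 to −0.02. Col2a1, the cartilage fibrillar collagen outside the list, had 131 and 141 UMIs in all kept cells, from 74 and 73 cells. In the mesenchyme, the summed markers of erythroid cells were at 23078 against 51250 CPM with 0 of 7 genes higher in Lipo-Clo. Those of neutrophils were at 651 and 384 CPM with 9 of 9 higher, and those of epithelium at 392 and 320 CPM with 8 of 13 higher. No marker of the 3 lists was at 0. Their part in the differences between the libraries was not tested.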

How the data were processed

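For each of 2 libraries the authors deposited a matrix of UMI counts, genes by cells, not normalized. Per the file headers the counts were made with Cell Ranger 8.0.0, while the submitters' processing notes name Cell Ranger 3.1.0, Seurat 3.1.1 and the GRCm39 (mm39) build. The annotation is not given in the sources used here. Depth was 31053404 UMIs in 9362 cells (Lipo-Clo) and 30537834 UMIs in 9653 cells (Lipo-PBS), which sets the exact Poisson and Clopper-Pearson intervals at 95%. These cover counting error only.

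Cells with under 200 genes or over 20% mitochondrial UMIs were removed. Scrublet's automatic threshold called 0 and 1 cells, so the 632 and 633 cells with the highest doublet scores (7.11% and 7.12%) were removed instead. Both libraries were clustered together in scanpy 1.11.5 with leidenalg 0.10.2, from 2000 variable genes without the 10 members, 30 components, 20 neighbours and resolution 1, without correcting for the library. A cluster took its name from marker lists that hold no member, requiring at least 3 markers. The mesenchyme was clustered again with 20 components at resolution 0.6, and states needed at least 50 cells in each library to be compared. Counts were summed per library and class or state. A ratio of 2 libraries has an exact interval for a pair of Poisson counts, and a difference of 2 ratios has a normal interval on the log scale. Thinning drew 1000 UMIs per cell and left out shallower cells. Poisson counts were simulated for the mesenchymal comparison over 4687 genes, with no variation between cells or libraries beyond counting. In them 94.5% of intervals of unchanged genes held the true value. Of genes set to 0.75-fold, 90.0% passed the limit of 0.32 on the log2 scale. Coverage near 95% follows from that setting, so it does not speak to the spread between animals or libraries.

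All 10 members are described, with up to 4 processing genes farthest past the limit in each direction (none was past it on the higher side) and the 3 genes most correlated with each member, of which 1 gene is not reported here. The members and lists were chosen with earlier results of these data known. Gene positions are from GENCODE M21 on GRCm38 (matched by Ensembl gene ID), and promoters from RefSeq, where 8 members had an entry. Settings tried in their place included other filters, resolutions, scalings (edgeR 4.0.16 and DESeq2 1.42.0 factors), fold limits and mixtures of states. No test between conditions was run, since each has 1 library.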

Additional observations from a re-analysis of the deposited data

Results flagged for a closer look

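Results were singled out where a gene was clearly higher in Lipo-Clo in 1 mesenchymal state and clearly lower in another by their counting intervals, with log2 ratios at least 1 apart. With 1 library per condition, the differences between states were not tested. Col11a1 had the widest gap, 2.14, from 0.31 in dental follicle to −1.83 in the Ctnnd2 pulp state. Col1a2 differed by 1.60 (0.25 in Clec3b fibroblasts, −1.36 in that pulp state) and Col1a1 by 1.49 (0.37 in the Edil3 PDL state, −1.12 in that pulp state). Col5a1 differed by 1.32 and Col3a1 by 1.30 between the same pulp state and the Edil3 PDL state or dental follicle. These 5 gaps all rest on the Ctnnd2 pulp state, whose cells had the lowest median depth of the 9 states, 1343 UMIs. In its median cell Col1a1 was 0.175% of UMIs in Lipo-Clo and 0.181% in Lipo-PBS, so the gap was not seen there. The levels of Col1a1, Col3a1 and Col5a1 in that state were at or under the highest blood class in both libraries. Those of Col1a2 and Col11a1 were so in Lipo-Clo but not in Lipo-PBS. Col27a1 differed by 1.496 without it, from 1.08 in odontoblasts to −0.42 in the Mmp13 state.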

How the results depend on the processing

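No paired analysis was possible because both conditions were sequenced as a single library each, so no replicate could be left out either. Of 22 other settings, each one under which Col1a2 per Col1a1 was recomputed in the summed mesenchyme left it lower in Lipo-Clo. Its log2 difference, −0.27, became −0.22 as a mean over cells, −0.19 in thinned cells, −0.21 with the same mixture of states and −0.23 with the cluster of several lineages included, and it was lower in 100% of states at each state setting. Col5a3, −0.39, changed direction with the same mixture of states (0.063), and so did Col3a1, from −0.11 to 0.073. The median of the 10 genes, −0.15, was −0.10 with doublets kept, −0.10 under a stricter filter (a minimum of 500 genes, a maximum of 10% mitochondrial UMIs), −0.11 at class resolution 2, −0.20 with each library clustered on its own, −0.044 with the cluster of several lineages and 0.0060 with the same mixture. That last median was −0.037 at state resolution 0.4 and 0.075 at resolution 1. The 2 genes lower past the limit became 1 with doublets kept, the stricter filter, class resolution 2 or the cluster of several lineages. They became 4 with each library clustered on its own or with totals that leave out ribosomal protein, haemoglobin and mitochondrial genes. The 1 higher became 2 as a mean over cells and 0 in thinned cells or with the same mixture. Over the settings, fold limits included, 0.064 to 18.9% of genes in use were higher past the limit and 0.96 to 22.6% lower. These shares are not given here setting by setting, so the changed counts of members are not set against a background. Past 1.5-fold and 2-fold 0 members were higher and 0 lower, with 0.747% and 0.064% of genes in use higher and 4.95% and 0.96% lower. Of the processing genes, 10 lower became 6 with the same mixture, 4 past 1.5-fold and 1 past 2-fold, and 0 higher became 1 with doublets kept and 2 with the stricter filter, thinned cells or the cluster of several lineages. The cause of these changes was not tested. The settings with the cluster of several lineages, the dividing cells or without the small states were chosen after seeing the data. Differences between conditions cannot be told apart from differences between the 2 libraries, and free RNA limits what can be said of levels within the range of the blood classes.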
